A study of Mus musculus with 4 samples.

Results

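Cdh11, Cdh2, Ctnnb1, Ctnna1 and Ctnnd1, which encode 2 cadherins and 3 catenins of the osteoblast cell junction, were examined for RNA polymerase II (Pol II) peaks. They are 5 of 21887 protein-coding genes placed on assembled chromosomes. The peaks taken were all those of 2 deposited lists that lay inside a gene or within 10 kb of its GRCm38 boundaries. In cells given OSS_128167 the list held 51 peaks at Cdh11 and 17 at Ctnnb1, but only 5 at Cdh2, 4 at Ctnnd1 and 3 at Ctnna1. In cells not given it the list held 1 peak at Cdh11 and 0 at the other 4 genes. The genes were grouped with earlier results of these lists known, so the values that follow are descriptions and carry no test.

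Cadherins are calcium-dependent adhesion proteins that span the membrane and bind the same protein on a neighbouring cell. Their inner tail holds β-catenin (Ctnnb1) and p120-catenin (Ctnnd1), and α-catenin (Ctnna1) joins β-catenin to actin. Cadherin-11 (Cdh11), also called OB-cadherin, and N-cadherin (Cdh2) are the main classical cadherins of the osteoblast lineage. β-catenin has a second role, as the coactivator that enters the nucleus and works with TCF/LEF factors when Wnt signals stop its degradation, and osteoblast formation needs this pathway.

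Pol II was mapped in mouse primary osteoblasts labelled young by ChIP-seq, which sequences the DNA that an antibody pulls down together with a fixed protein. The cells were grown out of minced bone as marrow stromal cells and kept in osteogenic medium for 3 days. The untreated Pol II library is titled as WT osteoblasts and has no treatment in its title. The other Pol II library is titled as treated with OSS_128167, an inhibitor of the chromatin deacylase SIRT6, and its title does not repeat WT. A treatment field naming OSS_128167 is shared by all 4 samples, 2 of them inputs, so the untreated group rests on titles. No dose or duration was given in the sources used here, and the labels do not say how many animals gave cells. Each condition has 1 Pol II library and no replicate, so a difference between lists is one between 2 libraries, and the effect of OSS_128167 cannot be told apart from differences in immunoprecipitation or depth.

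The untreated list held 1694 peaks and the OSS_128167 list 40748, and read totals are unknown. Both lists are permissive. In the untreated list 109 peaks (6.43%, exact 95% interval 5.31 to 7.71) had a false discovery rate (FDR) of at most 0.05, and in the OSS_128167 list 6568 (16.1%, 15.8 to 16.5). Intervals of this kind cover counting error only. Of 9 osteoblast marker genes, 5 had an OSS_128167 peak inside them (Runx2, Sp7, Col1a1, Col1a2 and Sparc), while Alpl, Ibsp, Bglap and Spp1 had none inside. The share among all protein-coding genes was 34.4%. In the untreated list Col1a2 held 6 peaks and Runx2 held 2, and the neuronal marker Syt1 held 1, none with an FDR of at most 0.05. The other marker genes had none inside, and 2.17% of all protein-coding genes had an untreated peak inside. In the OSS_128167 list a peak inside was found at 0 of 5 epithelial markers, among them the E-cadherin gene Cdh1. The count in that list was 3 of 4 for each of the endothelial, macrophage and neuronal markers. At an FDR of at most 0.05 the OSS_128167 counts were 4 of 9 for osteoblast markers and 0 for epithelial and endothelial markers. They were 2 for macrophage and 2 for neuronal markers, beside 9.97% of all protein-coding genes. Whether other cell types took part in the values below was not tested, and in bulk cells more cells with Pol II on a gene and more Pol II per cell cannot be told apart.

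The promoters of 2 members, Ctnnb1 and Ctnnd1, were in the RefSeq table for GRCm38.p6, with 2 start sites each. They are shown because the data place peaks just after, and not on, 3 of these 4 starts. Each window runs from 250 bases before the start to 50 after it, 5′ to 3′ along the gene. Capitals mark matches on either strand to TATAAA (the TATA box), CCAAT (the CCAAT box) and GGGCGG (the GC box). The first window is Ctnnb1 at its second start, chr9:120933328-120933627 on the plus strand. The others, both on the minus strand, are Ctnnd1 at its outer start, chr2:84658928-84659227, and Ctnnd1 at its inner start, chr2:84650691-84650990.
Ctnnb1 second start: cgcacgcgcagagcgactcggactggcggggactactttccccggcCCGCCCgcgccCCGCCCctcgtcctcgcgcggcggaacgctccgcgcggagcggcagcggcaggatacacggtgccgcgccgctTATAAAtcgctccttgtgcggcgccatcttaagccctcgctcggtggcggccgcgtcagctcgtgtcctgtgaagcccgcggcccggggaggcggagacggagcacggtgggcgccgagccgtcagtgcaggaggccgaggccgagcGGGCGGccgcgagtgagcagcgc
Ctnnd1 outer start: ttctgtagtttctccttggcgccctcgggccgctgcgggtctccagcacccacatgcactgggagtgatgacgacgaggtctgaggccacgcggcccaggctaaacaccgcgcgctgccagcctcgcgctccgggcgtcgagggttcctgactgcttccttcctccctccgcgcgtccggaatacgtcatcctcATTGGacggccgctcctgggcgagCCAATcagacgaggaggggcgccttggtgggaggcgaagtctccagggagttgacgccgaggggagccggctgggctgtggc
Ctnnd1 inner start: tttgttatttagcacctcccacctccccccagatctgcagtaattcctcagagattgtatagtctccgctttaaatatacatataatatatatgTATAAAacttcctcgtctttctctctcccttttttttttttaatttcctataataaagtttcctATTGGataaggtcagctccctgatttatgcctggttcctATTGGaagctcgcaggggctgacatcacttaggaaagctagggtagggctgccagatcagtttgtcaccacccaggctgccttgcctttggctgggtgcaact

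The Ctnnb1 window was rich in G and C (75% of its bases, with 51 CpG pairs), as was the outer Ctnnd1 window (67.7%, 30 CpG pairs). The inner Ctnnd1 window was not (42.7%, 3 CpG pairs), beside a mean of 53.8% and a median of 7 CpG pairs over 32851 windows. Counted from the start, TATAAA began at base -120 in the Ctnnb1 window and at -156 in the inner Ctnnd1 window, and 13.6% of all windows hold it. CCAAT was found in both Ctnnd1 windows (37.4% of all windows hold it), and GGGCGG in the Ctnnb1 window (35.7%). None of the 3 motifs overlapped another in these windows. These are letter matches and not measured sites of binding.

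No peak of either list touched any of the 4 member windows. Over all windows 2.02% (1.87 to 2.18) overlapped an OSS_128167 peak and 0.0304% (0.0146 to 0.0560) an untreated peak. The nearest OSS_128167 peak began 851 bp after the first Ctnnb1 start and 673 bp after the second. At the inner Ctnnd1 start it began 218 bp after, and at the outer start 8455 bp after. A peak within 1 kb after the start was thus listed at 3 of 4 starts, and at 3.19% (3.01 to 3.39) of all starts. The 2 Ctnnb1 starts are followed by the same peak, so the 3 starts rest on 2 peaks at 2 genes. The peak after the inner Ctnnd1 start had an FDR of 0.183. No start of Cdh11, Cdh2 or Ctnna1 was among these windows. By the directions given below, their nearest inside OSS_128167 peaks lay 4017, 26078 and 27747 bp from the boundary where transcription starts. The members were chosen on peaks in these lists, so nothing is read from the 3 of 4.

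Cdh11 (chromosome 8, 102632095 to 102785493) had the most peaks of the 5 genes. In the OSS_128167 list 47 peaks lay inside the gene and 4 below its lower boundary, and the 47 covered 14.5% of its 153 kb. In the untreated list 1 peak of 204 bp covered 0.133%. The OSS_128167 folds ran from 2.05 to 5.21 with a median of 3.16, beside a median of 2.87 in the whole list. Pileups, the deposited height of the signal, ran from 7 to 19, beside a median of 8 in the whole list. Of the 51 peaks, 23 (45.1%) had an FDR of at most 0.05, beside 16.1% in the whole list, and 1 had an FDR of at most 1e-05. Neighbouring peaks of a gene are not independent counts, so no interval is given for such shares.

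The single untreated peak at Cdh11 lay at 102748468 to 102748671, inside the gene. Its fold was 3.54 and its FDR 1, and 204 bp is the shortest length in that list. It overlapped no OSS_128167 peak, and the nearest was 9567 bp away. It also lay in the widest stretch of Cdh11 without an OSS_128167 peak, 26.1 kb from 102732103 to 102758238. The lists therefore shared no position at the 5 genes, which rests on this 1 peak. How many of all 1694 untreated peaks overlap an OSS_128167 peak was not counted, so nothing particular to these genes is read from it.

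Only 5 of 21887 protein-coding genes held more OSS_128167 peaks inside them than Cdh11, and 490 had a larger covered share. Among the 4945 genes of at least 50 kb, 11 had a larger covered share, and the median gene was covered over 0.334%. Of the 823 genes of like length (up to 20% shorter or 25% longer), 1 was covered more. The nearest in covered share among these were Fam227b (13.2%, 24 peaks), Wwp2 (6.87%, 13 peaks) and Col5a2 (6.56%, 21 peaks), over this 1 library. Col5a2 encodes a chain of type V collagen and Wwp2 a ubiquitin ligase.

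**Figure D1:**
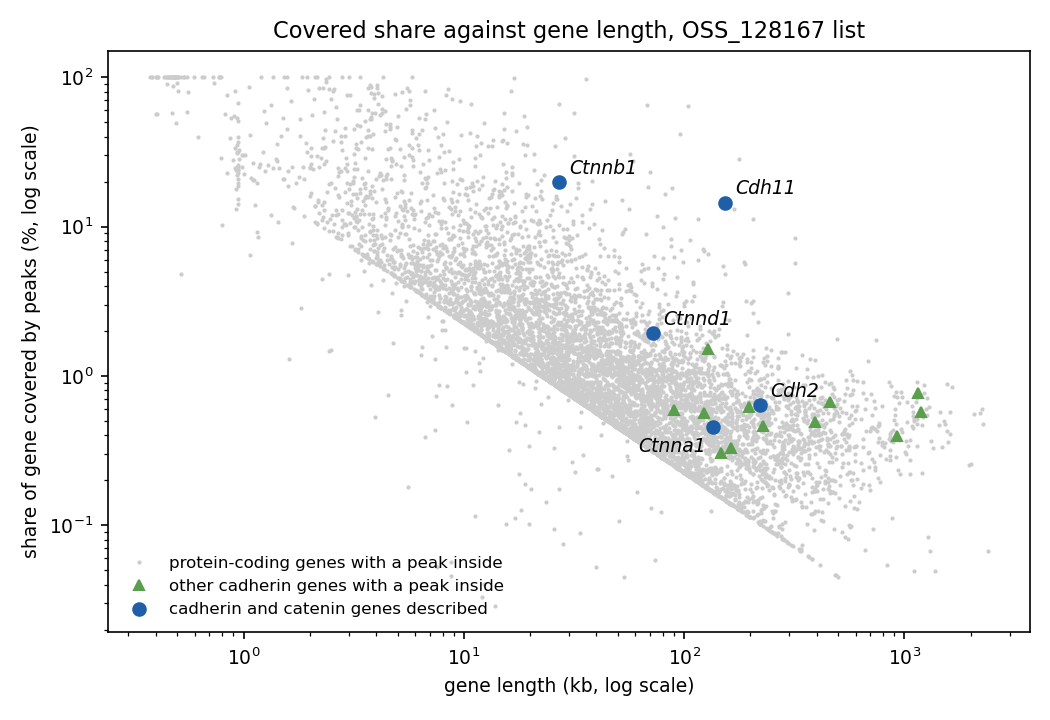
Share of each protein-coding gene covered by OSS_128167 peaks (percent, log scale) against gene length (kb, log scale), for genes with a peak inside. Cdh11 (14.5%) and Ctnnb1 (19.9%) stand above nearly all genes of like length. Cdh2 (0.638%) and Ctnna1 (0.458%) lie among the other cadherin genes (triangles, 0.306% to 1.52%), and Ctnnd1 (1.93%) lies above them.

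The peaks of Cdh11 were spread along the gene, with more of them at a low FDR toward its upper boundary. Cdh11 and Cdh2 are transcribed from the upper to the lower coordinate and Ctnna1 from the lower to the upper. These directions are general knowledge of the mouse genome and were not read from the tables. Cut into 10 equal parts from the lower boundary, parts 9 and 10 were covered over 22.9% and 29.6%, part 8 over 0%, and the other 7 over 8.91% to 23.3%. The third of the gene nearest the upper boundary held 8066 bp of peaks and the lowest 8418 bp. In the former, 10 of 15 peaks had an FDR of at most 0.05, against 6 of 14 in the middle and 4 of 18 in the lowest. The median folds there were 3.42, 3.13 and 3.01.

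The 3 highest folds inside Cdh11 lay between 9.29 and 17.2 kb from its upper boundary. The highest fold, 5.21 (FDR 4.37e-07, pileup 19), was in a peak of 549 bp at 102768322 to 102768870. A peak of 1615 bp at 102771949 to 102773563 had a fold of 4.39 and an FDR of 0.000181. No peak reached within 1 kb of the upper boundary, where transcription starts, and the last one ended 4017 bp short of it. Beyond the lower boundary, where transcription ends, a peak of 1660 bp had a fold of 4.22 (FDR 5.85e-05). The farthest of the 4 peaks there ended 6069 bp outside the gene.

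Outside Cdh11 peaks were few. The gene held 30.6 peaks per 100 kb, and the 200 kb beyond the 10 kb flanks held 1 per 100 kb on the lower side and 0 on the upper side. The first OSS_128167 peak past the lower flank was 41.2 kb from the gene, and the first on the upper side 419 kb. No other annotated gene lay within 10 kb of Cdh11.

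**Figure D2:**
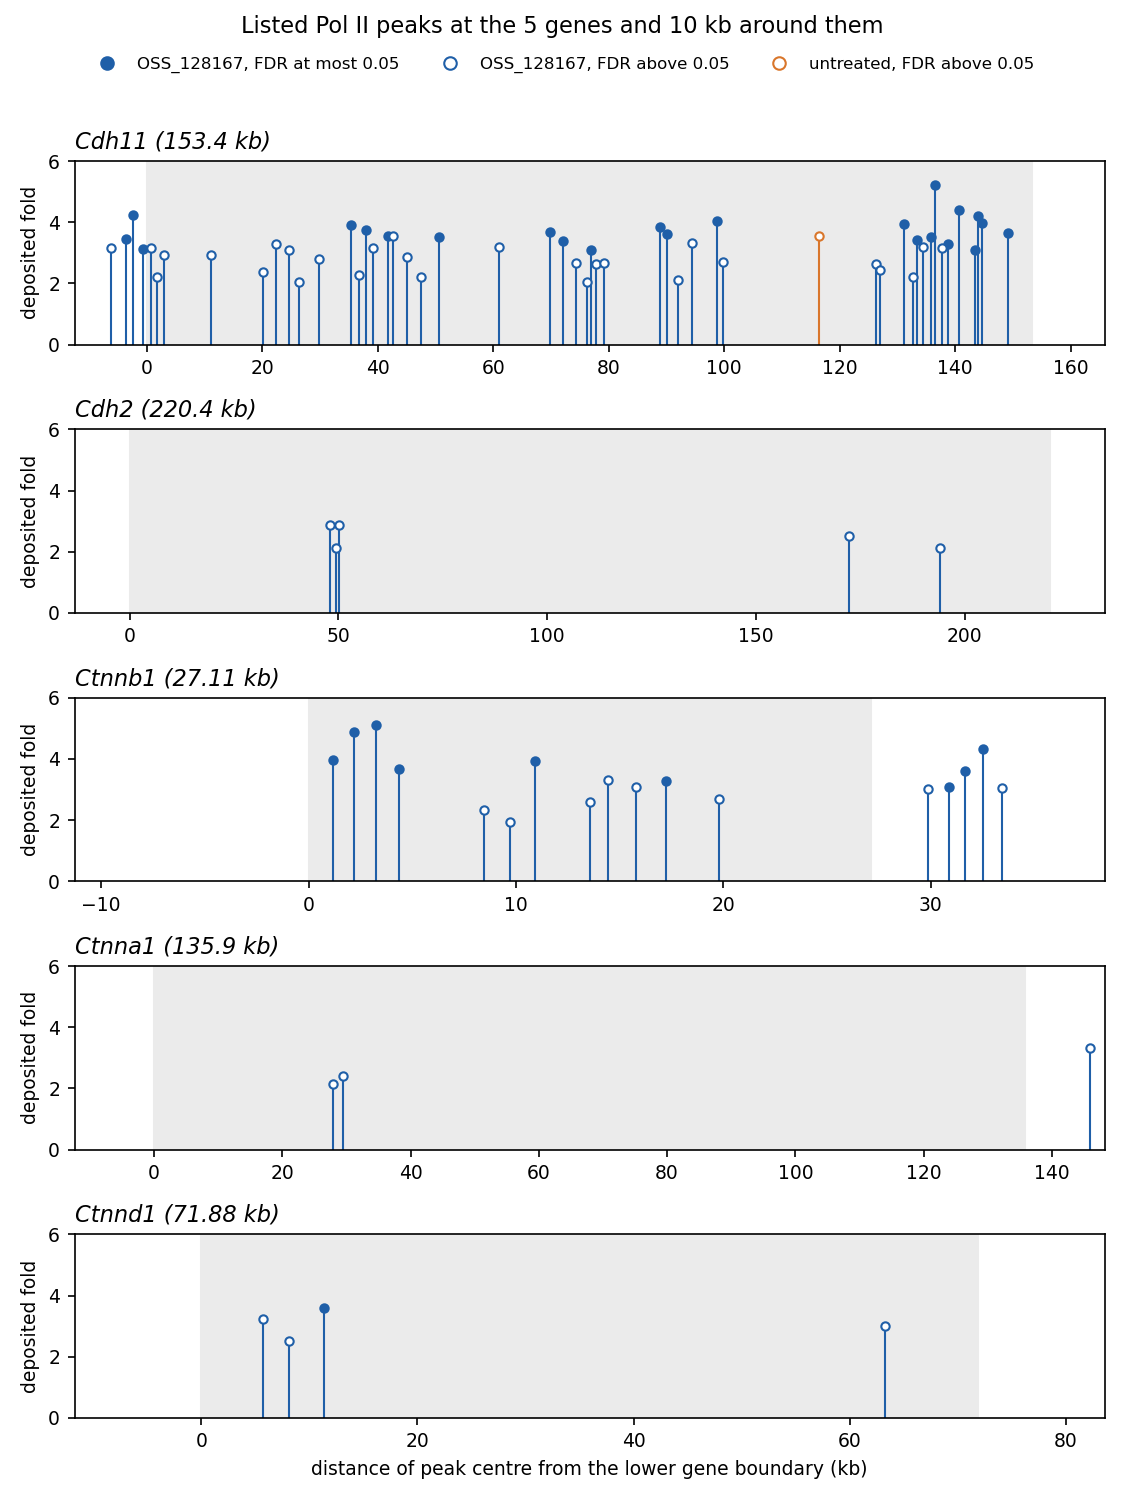
Deposited fold of every peak of both lists against the distance of its centre from the lower gene boundary (kb), with the gene shaded and 10 kb shown on each side. Filled points have an FDR of at most 0.05. Cdh11 has 51 OSS_128167 peaks and 1 untreated peak, Ctnnb1 has 17 OSS_128167 peaks (4 near its start, 8 further inside and 5 past its end), and the other 3 genes have 3 to 5.

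Cdh2 (chromosome 18, 16588877 to 16809246), the other cadherin and the longer gene at 220 kb, had 5 OSS_128167 peaks and 0 untreated peaks. The 5 peaks covered 0.638% of the gene, all inside it, with folds of 2.11 to 2.87 and pileups of 6 to 7. None had an FDR below 0.377. Cdh2 held 2.27 peaks per 100 kb, where the median over genes of at least 50 kb was 1.19 and Cdh11 held 30.6. Of genes of at least 50 kb, 1205 were covered over a larger share, as were 95 of the 524 genes of like length.

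The Cdh2 peaks lay far from both ends. A group of 3 stood 47790 to 50164 bp above the lower boundary, and the other 2 ended 47958 and 26078 bp below the upper boundary. Between these groups 122 kb held no peak. The nearest peak outside the 10 kb flanks was 11.6 kb below the gene, with a fold of 2.85 and an FDR of 0.377.

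Ctnnb1 (chromosome 9, 120933400 to 120960507), which encodes β-catenin, was the most covered of the 5 genes for its length. Of 17 OSS_128167 peaks 12 lay inside its 27.1 kb and covered 19.9%, and the untreated list had 0. Folds ran from 1.95 to 5.11 with a median of 3.27, and pileups from 7 to 16. In 9 of the 17 peaks (52.9%) the FDR was at most 0.05, and in 1 at most 1e-05. In all, 376 protein-coding genes had a larger covered share, and 7 of the 2700 genes of like length. Near it in covered share among these were Rbm39 (19.7%, 15 peaks) and Cep68 (20.6%, 12 peaks).

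The peaks of highest fold in Ctnnb1 followed its start. Of 10 equal parts from the start, the first was covered over 62.3%, the second over 30.1%, and parts 3, 9 and 10 over 0%. The 4 peaks nearest the start lay between 851 and 4470 bp from the lower boundary. Their folds, in order from the start, were 3.95, 4.88, 5.11 and 3.67, each with an FDR of at most 0.05. The peak of 589 bp at 120936364 to 120936952 had the lowest FDR, 5.96e-06. After a gap of 3.82 kb, 8 peaks followed with folds of 1.95 to 3.94, and the last ended 7169 bp before the end of the gene.

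Past the end of Ctnnb1 there were 5 more OSS_128167 peaks, 2589 to 6193 bp beyond the boundary. The highest had a fold of 4.31 (FDR 0.00235) and a length of 834 bp. The last 4 of these overlapped Ulk4, a kinase gene from 120964454 to 121286159 whose lower boundary faces Ctnnb1, so these peaks are shared by both genes. Ulk4 held 7 peaks inside it. A further peak lay just outside the limit, 10476 bp above Ctnnb1 and with a fold of 3.31, and the first below the gene lay 43.1 kb away. The 200 kb beyond the flanks held 1.5 peaks per 100 kb on each side, and the gene 44.3.

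**Figure D3:**
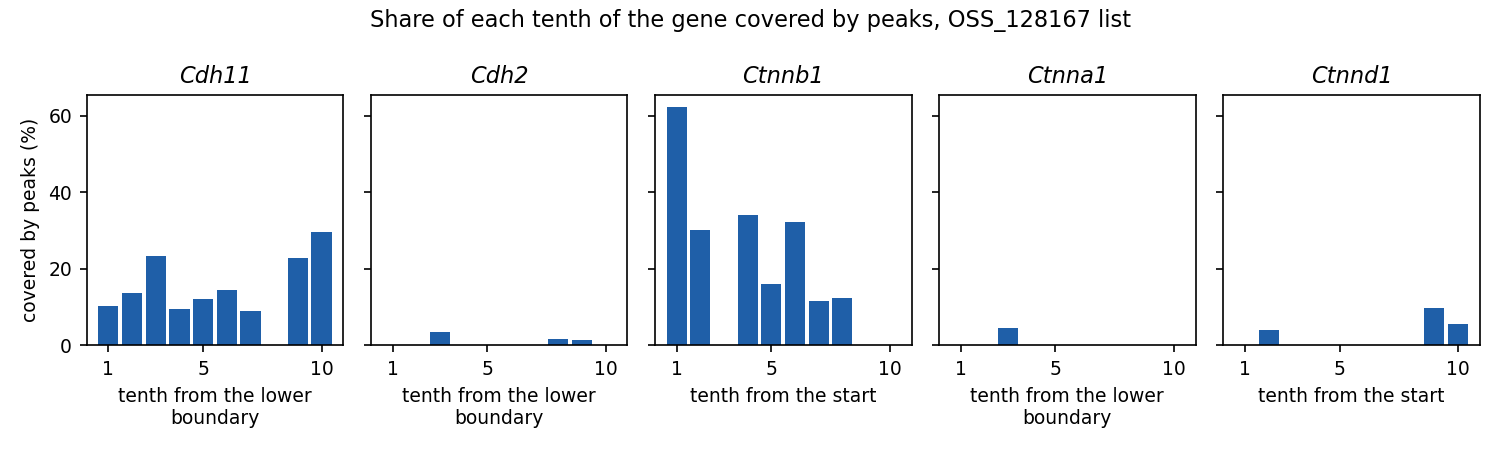
Percent of each of 10 equal parts of the gene covered by OSS_128167 peaks, counted from the start for Ctnnb1 and Ctnnd1 and from the lower boundary for the others. Ctnnb1 reaches 62.3% in its first part, Cdh11 29.6% in the part at its upper boundary, and no part of the other 3 genes passes 9.73%.

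Ctnna1 (chromosome 18, 35118902 to 35254776), which encodes αE-catenin, had the fewest peaks. The OSS_128167 list held 2 peaks inside its 136 kb and 1 outside, and the untreated list 0. The inside peaks, with folds of 2.16 and 2.41 and FDRs of 0.966 and 0.676, lay 27.7 to 29.6 kb above the lower boundary and covered 0.458% of the gene. The peak outside began 9990 bp above the upper boundary, just within the 10 kb limit, and had a fold of 3.31 and an FDR of 0.071. Of genes of at least 50 kb, 1790 were covered over a larger share, as were 321 of the 955 genes of like length. Ctnna1 held 1.47 peaks per 100 kb, fewer than the 4.5 in the 200 kb on its lower side. Lrrtm2 inside it and Gm46617 across its lower boundary had no peak in either list.

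Ctnnd1 (chromosome 2, 84587096 to 84658977), which encodes p120-catenin, had 4 OSS_128167 peaks and 0 untreated peaks. All 4 lay inside its 71.9 kb and covered 1.93%, with folds of 2.52 to 3.59. The peak of highest fold, at 84598320 to 84598609, had an FDR of 0.04997, and the other 3 had FDRs of 0.159 to 0.676. This peak and 2 others stood 5551 to 11513 bp from the lower boundary, which is the end of the gene. The last, at 84650230 to 84650522 (fold 3.01, FDR 0.183), followed the inner start shown above. Between them 51.6 kb held no peak. Of genes of at least 50 kb, 167 were covered over a larger share, as were 71 of the 1586 genes of like length.

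**Figure D4:**
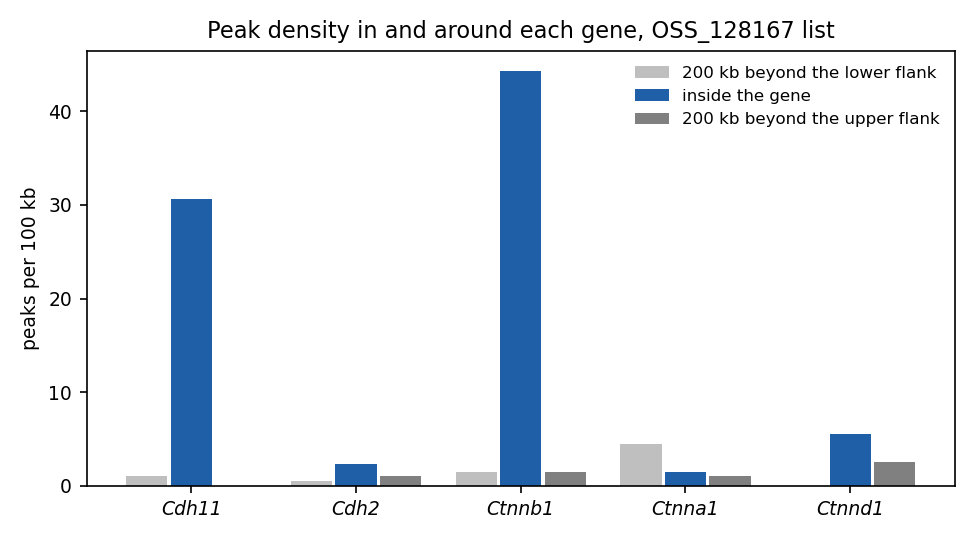
OSS_128167 peaks per 100 kb inside each gene and in the 200 kb beyond its 10 kb flank on each side. Inside values are 30.6 for Cdh11 and 44.3 for Ctnnb1 (sides 0 to 1.5), 2.27 for Cdh2 (sides 0.5 and 1) and 5.56 for Ctnnd1 (sides 0 and 2.5), and Ctnna1 alone, at 1.47, lies below one of its sides (4.5 and 1).

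Over the 5 genes together the OSS_128167 list held 80 peaks, of which 70 were inside a gene. An FDR of at most 0.05 was given for 33 (41.25%), beside 16.1% in the whole list. Of these 33 peaks, 23 were at Cdh11, 9 at Ctnnb1 and 1 at Ctnnd1. A peak inside the gene was listed for 5 of 5 members, beside 34.4% of all protein-coding genes and 70.8% of those of at least 50 kb. A peak inside or within 10 kb was likewise listed for 5 of 5, beside 53.9%. At an FDR of at most 0.05, 3 of 5 members had a peak inside (Cdh11, Ctnnb1 and Ctnnd1), beside 9.97%. In the untreated list 1 of 5 members had a peak inside, beside 2.17% of protein-coding genes and 6.55% of those of at least 50 kb, and 1 of 5 had one inside or within 10 kb, beside 3.13%. A peak within 1 kb of a gene boundary was listed in the OSS_128167 list for 2 of 5 members, Cdh11 and Ctnnb1, beside 14.1%, and for the same 2 at an FDR of at most 0.05, beside 5.22%. In the untreated list it was listed for 0 of 5, beside 0.393%. The Cdh11 peaks of this kind were at its lower boundary, with FDRs of 0.04997, just under the limit, and 0.0765. The Ctnnb1 peak was at its start, with an FDR of 0.012. The members were chosen on peaks in these lists, so nothing is read from these counts.

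Of 20 other cadherin genes, 12 had an OSS_128167 peak inside, beside 34.4% of all protein-coding genes and 70.8% of those of at least 50 kb. Their covered shares ran from 0.306% to 1.52%, and their densities from 1.23 to 5.44 peaks per 100 kb, a range that holds Cdh2 (2.27) and not Cdh11 (30.6). Cdh12 held 29 peaks and Cdh13, which encodes the tail-less T-cadherin, 22, in genes of over 1000 kb and at 2.52 and 1.86 peaks per 100 kb. The E-cadherin gene Cdh1 and the VE-cadherin gene Cdh5, which mark epithelium and endothelium, had no peak in either list. Cdh5 is 1 of the 4 endothelial markers above, of which 3 had an OSS_128167 peak inside. None of the 20 had an OSS_128167 peak within 1 kb of a boundary, beside 14.1% of all protein-coding genes. None had an untreated peak inside or within 10 kb, beside 3.13%, so the count is near that share. These differences between genes of 1 library were not tested.

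Of 10 other catenin and armadillo genes, 5 had an OSS_128167 peak inside, beside 34.4% of all protein-coding genes and 70.8% of those of at least 50 kb. These 5 were covered over 0.269% to 0.571%. Ctnna2 and Ctnna3, α-catenins of nerve and heart, are very long genes and held 21 and 18 peaks at 1.91 and 1.14 per 100 kb. They also had untreated peaks inside, 4 at Ctnna2 and 1 at Ctnna3, none with an FDR of at most 0.05. In that list 2.17% of all protein-coding genes and 6.55% of those of at least 50 kb had a peak inside. A peak within 1 kb of a boundary was listed at 2 of 10, beside 14.1%, which were Arvcf (fold 3.42, FDR 0.0714), a relative of p120-catenin, and Pkp1 (1.95, FDR 0.873). Jup, which encodes the β-catenin relative plakoglobin, had no peak inside.

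Of 15 junction and actin linker genes, 12 had an OSS_128167 peak inside and 5 had one within 1 kb of a boundary. The shares of protein-coding genes were 34.4% inside (70.8% of those of at least 50 kb) and 14.1% at a boundary. Those with a peak inside were covered over 0.122% to 4.64%. Actn1, which encodes an α-actinin, held 12 peaks and was covered over 4.61%, and Vcl, which encodes vinculin, held 7 and was covered over 2.16%. The highest folds at a boundary were 3.95 at Pdlim7 (FDR 0.012), 3.08 at Zyx (FDR 0.0405), which encodes zyxin, and 2.71 at Tjp1 (FDR 0.377). Ablim1 had the only untreated peak of this group, inside the gene, where 2.17% of all protein-coding genes had one.

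Around β-catenin, 11 of 16 genes of the destruction complex and nuclear partners had an OSS_128167 peak inside, and 4 had one within 1 kb of a boundary. The shares of protein-coding genes were 34.4% inside (70.8% of those of at least 50 kb) and 14.1% at a boundary. The highest folds were 4.31 at Bcl9l (FDR 0.00235), a coactivator partner of β-catenin, 4.14 at Tcf7l1 (FDR 0.000838) and 2.87 at the Wnt target Axin2 (FDR 0.377). Gsk3b, whose kinase marks β-catenin for degradation, held 7 peaks inside, and Tcf7l2 held 6. Among 16 Wnt receptors and antagonists, 6 had a peak inside and 3 had one within 1 kb of a boundary, near the same shares of all genes (34.4% and 14.1%). These 3 were Dkk3 (fold 4.55, FDR 0.000603), the receptor gene Fzd1 (3.61, FDR 0.0212) and the antagonist gene Sfrp2 (2.05, FDR 0.753). Dkk3 and the coreceptor gene Lrp6 held 5 peaks inside each. Lgr4 had the only untreated peak of this group, inside the gene, where 2.17% of all protein-coding genes had one.

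Of 9 genes for the cleavage of cadherins or the control of their transcription, 7 had an OSS_128167 peak inside and 4 had one within 1 kb of a boundary. The shares of protein-coding genes were 34.4% inside (70.8% of those of at least 50 kb) and 14.1% at a boundary. Snai1, which encodes the E-cadherin repressor Snail, was covered over 45.3% with a fold of 6.27 (FDR 6.17e-09). Twist1, which encodes a transcription factor of mesenchymal cells, had a fold of 3.23 at a boundary (FDR 0.159). Zeb2 held 9 peaks inside. This group and the group of β-catenin partners had no untreated peak inside or within 10 kb, beside 3.13% of all protein-coding genes.

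**Figure D5:**
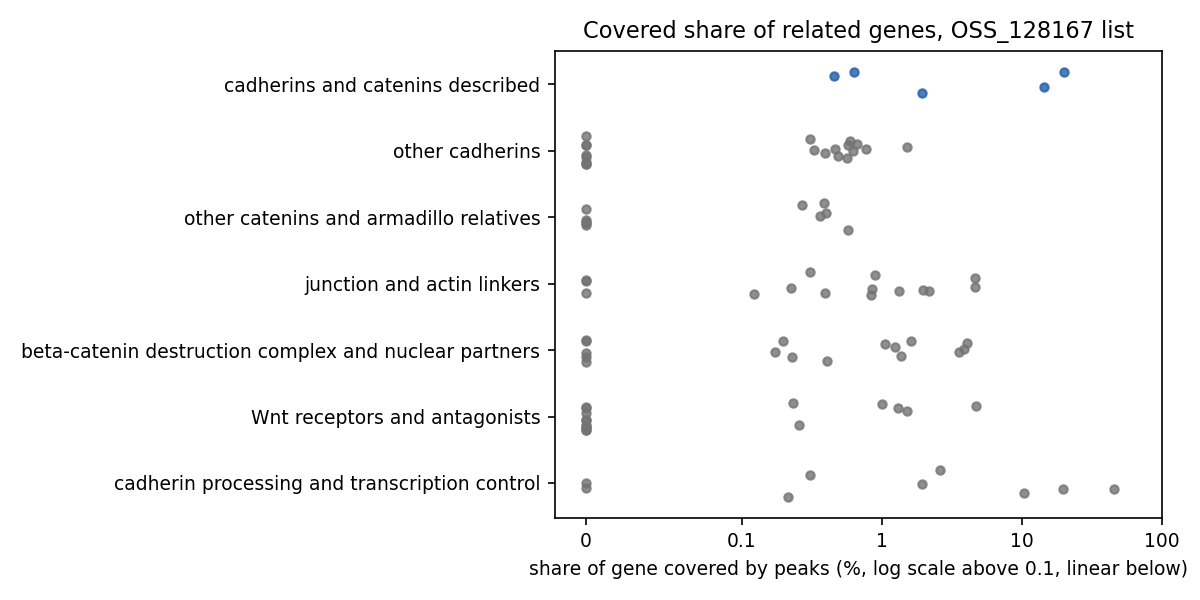
Share of each gene covered by OSS_128167 peaks (percent, log scale above 0.1 and linear below), 1 point a gene, by group. Cdh11 and Ctnnb1 (14.5% and 19.9%) exceed every gene of the other 6 groups shown except Snai1 (45.3%) and Snai2 (19.7%), short genes of which Snai2 exceeds Cdh11 alone.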

How the data were processed

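Both Pol II peak lists were used, and the 2 input samples were not used here. Reads had been trimmed with fastp and aligned with BWA to mm10, as far as the submitters' processing notes name these tools and this build. The peak caller is not given in the sources used here, nor are its thresholds. Each deposited list gives for every peak its length, its fold over background (a linear ratio), p-value, FDR and pileup signal, per the file headers. These are the authors' values, used only to describe peaks within their own list. Largest p-values were 0.00956 (untreated) and 0.00999.

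Overlaps of at least 1 bp, covered bases and counts were computed for 21887 protein-coding genes from RefSeq boundaries of GRCm38.p6, the assembly behind mm10. Strand came from the RefSeq promoter table, where 2 of 5 members matched. Exact intervals are Clopper-Pearson. Members and lists were chosen with earlier results of these data known. Beside the members, the text names per list and library up to 3 genes of highest boundary fold, up to 2 with most peaks inside, all with an untreated peak inside, and for each member 3 genes of like length and nearest covered share. Other genes (Cdh1, Cdh5, Jup, Snai2) were named after their values were seen, and 2 genes that the rule names are not reported here. Tools were pandas 2.3.3, numpy 2.4.6 and scipy 1.17.1 under Python 3.11.15, with matplotlib 3.10.9 for plots. The interval search was tested with planted peaks at sampled genes. At the same genes, its counts and covered bases for the OSS_128167 list were checked against a direct comparison. Alternatives were stricter FDR limits, other flanks and windows, peak centres, joined peaks and long peaks only.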

Additional observations from a re-analysis of the deposited data

How the results depend on the processing

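No paired analysis was possible because each condition has 1 library. At an FDR of at most 0.05 the OSS_128167 list kept 23 peaks at Cdh11, 9 at Ctnnb1, 1 at Ctnnd1 and 0 at Cdh2 and Ctnna1, covering 6.53%, 12.0%, 0.403%, 0% and 0% of these genes. At an FDR of at most 1e-05 it kept 1 at Cdh11, 1 at Ctnnb1 and 0 at the other 3. Peaks of at least 500 bp alone covered 7.89% of Cdh11, 8.40% of Ctnnb1 and 0% of the others. The untreated Cdh11 peak was lost at both FDR limits and among peaks of at least 500 bp (0 peaks, 0%). Leaving out or narrowing the flank, taking peak centres, or joining peaks under 500 bp apart kept every member within 1.5 times its value. Other rules for a shared position (50% overlap, or within 1 kb) could only give 0. The single untreated peak lay 9567 bp from the nearest OSS_128167 peak. Protein-coding genes with a peak within 1 kb of a boundary numbered 86 (untreated) and 3094 (OSS_128167), and 13 and 1143 at an FDR of at most 0.05, and 55 and 2053 within 500 bp. For the related gene groups, 14 of 24 alternatives started from a count of 0 and could only stay there, and of the other 10, 6 fell by more than 1.5 times and 4 did not. With unknown read totals, absent peaks were not detectable at these depths rather than shown to be absent.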

Other observations

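Genes of like length (up to 20% shorter or 25% longer) numbered 524 for Cdh2, 955 for Ctnna1 and 1586 for Ctnnd1. The 3 nearest to each member in OSS_128167 covered share are named here. For Cdh2 they were Cngb3, Prr16 and Map2k5, with 4, 5 and 5 peaks inside. For Ctnna1 they were Mprip, Ptpn14 and Adam32, with 2, 3 and 2. For Ctnnd1 they were Lrp1, Nt5dc3 and Pramel35, with 6, 4 and 4. None of these 9 genes had an untreated peak inside, beside 2.17% of all protein-coding genes and 6.55% of those of at least 50 kb.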
